A study of Mus musculus with 8 samples.

Results

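LINE copies were followed in native RNA of P19 cells, a mouse embryonal carcinoma line that is pluripotent and can form neurons. The undifferentiated wild-type cells received MHY1485 (MHY), a compound used to activate the mTOR pathway, at 10 µM, or the same amount of its solvent DMSO, for 24 h or 48 h. Each of the 4 groups had 2 libraries, named here by the numbers in the deposited table, which are 21 and 23 at 24 h and 24 and 25 at 48 h (names, not hours). Nanopore direct RNA sequencing gave 1 poly(A) tail length per read, and each read had been aligned to mouse transcripts and to single repeat copies. LINE alignments were those on copies of the LINE class with a usable tail (quality tag PASS), counted once per read and copy. There were 7149 of them among 2027448 PASS alignments (0.353%), on 644 copies with 86 repeat names.

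LINEs are retrotransposons that move by copying their own RNA back into the genome. A full-length L1, the family still active in the mouse, encodes an RNA-binding protein and an endonuclease with reverse transcriptase activity, and most older copies are truncated remnants. The same enzyme can also copy cellular mRNAs, which leaves processed pseudogenes that can sit inside older LINE copies. The L2 and CR1 families are ancient and no longer move.

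The libraries held 187676 to 333403 PASS alignments, and gene transcripts took 94.4% to 95.5% of them. Pou5f1, a marker of undifferentiated cells, had 467 to 906 alignments per library, whereas of the endoderm markers Gata6 had 3 alignments in all and Sox17 and Afp had 0. Of the neuronal markers, Neurod1 had 2 alignments in all and Map2 had 6, but Tubb3 had 94 and Stmn2 had 455. The study's methods name them biological replicates, multiplexed by barcode. With 2 against 2 libraries, the exact permutation test (two-sided) cannot give a p below 0.333.

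L1 accounted for nearly all LINE alignments, with 7085 on 607 copies (99.1% of LINE). L2 had 60 alignments on 34 copies and CR1 had 4 on 3 copies. Within L1 the alignments were concentrated on few copies. A single copy, Lx3B_dup3459, took 4543 of them (63.5% of LINE), and the 3 leading copies took 80.03%. Among repeat names, Lx3B (4548), L1_Mus1 (678), L1Md_T (626), L1Md_F2 (252) and Lx7 (148) had most alignments, followed by L1Md_F3 with 78, Lx with 70, L1_Mur2 and Lx8 with 51 each and Lx3C with 48. Of the 644 copies, 510 had 1 alignment and 21 had 10 or more.

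**Figure D1:**
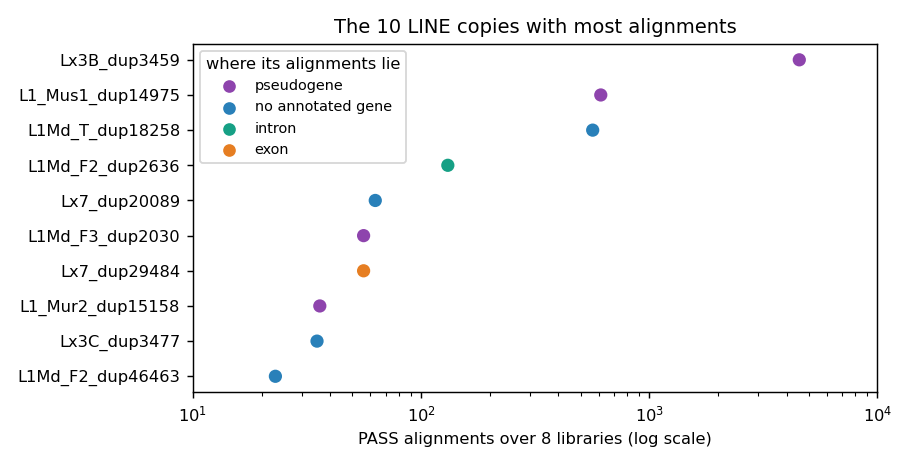
PASS alignments over 8 libraries (log scale) of the 10 LINE copies with most alignments, coloured by the annotation at the place where the reads aligned. Lx3B_dup3459 held 4543 alignments, followed by L1_Mus1_dup14975 with 613 and L1Md_T_dup18258 with 565.

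The reads covered a short stretch of the leading copies. Lx3B_dup3459 lies at chrX:152907041-152912611 (mm10) and is 5571 nt long, but its alignments had a median length of 646 nt and a median span of chrX:152909511-152910156. This is the place of Gm6472, an annotated processed pseudogene at chrX:152909505-152910155. Its sequence matched the coding sequence of Rps7, a protein of the small ribosomal subunit, at 579 of 582 bases (99.5%). The first 240 coding bases of both are given to show how little separates a read of the mRNA from a read of the LINE copy. Capitals mark the 3 bases that differ, and the sequences were read from GENCODE vM21 (GRCm38), with Gm6472 on the minus strand at chrX:152909881-152910120.
Rps7: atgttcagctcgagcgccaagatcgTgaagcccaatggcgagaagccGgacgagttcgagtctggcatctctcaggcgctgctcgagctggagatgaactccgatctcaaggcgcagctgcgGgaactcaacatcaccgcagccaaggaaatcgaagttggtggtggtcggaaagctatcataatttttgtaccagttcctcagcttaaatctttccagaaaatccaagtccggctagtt
Gm6472: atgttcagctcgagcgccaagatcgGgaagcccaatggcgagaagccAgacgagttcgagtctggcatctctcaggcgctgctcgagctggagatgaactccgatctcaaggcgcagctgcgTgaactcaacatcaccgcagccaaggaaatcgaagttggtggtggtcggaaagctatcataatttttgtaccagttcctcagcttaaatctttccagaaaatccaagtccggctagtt

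All 4543 alignments on Lx3B_dup3459 fell on this pseudogene, with a median mapping quality of 1, the score minimap2 gives to a read that fits several places almost equally. L1_Mus1_dup14975 (chrX:79190355-79196303) was similar, since its 613 alignments lay on Rps24-ps3, a pseudogene named for Rps24, another protein of the small subunit. Smaller numbers lay on Gm5539 in L1Md_F3_dup2030 (56 alignments) and Gm6988 in L1_Mur2_dup15158 (36 alignments). In all, 5341 LINE alignments (74.7%) on 19 copies lay on pseudogenes. Of the rest, 1166 lay where GENCODE annotates no gene, 458 in introns and 184 in exons of other genes. The deposited table gives no strand, and positions were counted from the left end of each copy. Among the 1678 alignments on other copies of at least 1000 nt, 779 then fell on pseudogenes, against 47 when counted from the right end.

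Some LINE remnants lie in exons of other genes. Lx7_dup29484 (chr12:109661512-109661691) is a 180-nt remnant in the last exon of Rian, a long non-coding RNA of an imprinted region, and it ends 25 nt before that exon does. The median alignment of its 56 reads spanned the whole copy. Its sequence (plus strand, from the Rian transcript in GENCODE vM21, GRCm38) is shown with AATAAA, the usual poly(A) signal, in capitals.
Lx7_dup29484: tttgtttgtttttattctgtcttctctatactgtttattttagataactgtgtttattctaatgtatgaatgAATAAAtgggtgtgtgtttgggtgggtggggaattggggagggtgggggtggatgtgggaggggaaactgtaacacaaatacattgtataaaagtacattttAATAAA
AATAAA starts at positions 73 and 175 of the copy, and 7.87% of 180-nt windows of lincRNA transcripts hold it. The same letters on the other strand occur 3 times in the copy and in 8.53% of windows. The 56 reads had a median tail of 123 nt. A second Lx7 copy of 180 nt, Lx7_dup20089 (chrX:64498691-64498870, no annotated gene), had 63 alignments and a median tail of 130 nt. The median mapping quality was 0 for both Lx7 copies. Lx3C_dup3477 (chrX:103024106-103024247) had 35 alignments and L1Md_F2_dup46463 (chr11:106074296-106074819) had 23, with median mapping qualities of 27 and 37. GENCODE annotates no gene at either place, but in RefSeq the first lies in the long non-coding RNA Gm39529.

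Few reads ran along long L1 copies. Of the 644 copies, 38 were 5000 nt or longer, yet 1 alignment reached 5000 nt, with 5151 nt. Outside pseudogenes the median aligned length was 281 nt, and 82 of 1808 alignments reached 1000 nt. Relative to the copy, 599 of the 1808 alignments (33.1%) covered at least 90% of their copy.

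The LINE share was compared between MHY and DMSO by the exact test, which 2 libraries per group leave unable to pass. At 24 h LINE made up 0.353% and 0.385% of PASS alignments in the DMSO libraries and 0.345% and 0.350% in the MHY libraries. Both MHY libraries were lower, with a mean of 0.347% ± 0.0035 against 0.369% ± 0.0231 (SD, n = 2, exact permutation p = 0.333, the smallest possible). The deposited reads of each time point come in parts, called runs here, which split the same libraries and are not further replicates. Within the 3 runs of 24 h the ratio of MHY to DMSO was 0.864, 1.02 and 0.972, so that 1 run went the other way. Leaving out the DMSO library 23 moved the difference from -0.0220 to -0.00562 percentage points, and leaving out the DMSO library 21 to -0.0383. Without Lx3B_dup3459 it was -0.00246, and with mapping quality of at least 10 it turned to 0.00830. At 48 h the DMSO libraries had 0.322% and 0.381% and the MHY libraries 0.349% and 0.315%. The groups overlapped at 48 h (exact permutation p = 0.667, n = 2), and the test of the difference between the times did not pass (exact permutation p = 0.889, n = 2).

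Outside pseudogenes the share was lower in both MHY libraries at 48 h. The DMSO libraries had 0.0971% (Wilson 95% interval 0.0851% to 0.111%) and 0.104% (0.0934% to 0.115%), and the MHY libraries 0.0825% (0.0732% to 0.0929%) and 0.0767% (0.0661% to 0.0890%). Both MHY libraries were below both DMSO libraries, with a ratio of means of 0.792 (exact permutation p = 0.333, n = 2). The ratio was 0.777 and 0.803 within the 2 runs of 48 h, which hold reads of the same libraries and add no replicates. At 24 h the groups overlapped, with a ratio of 0.931. Intervals cover counting error only.

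**Figure D2:**
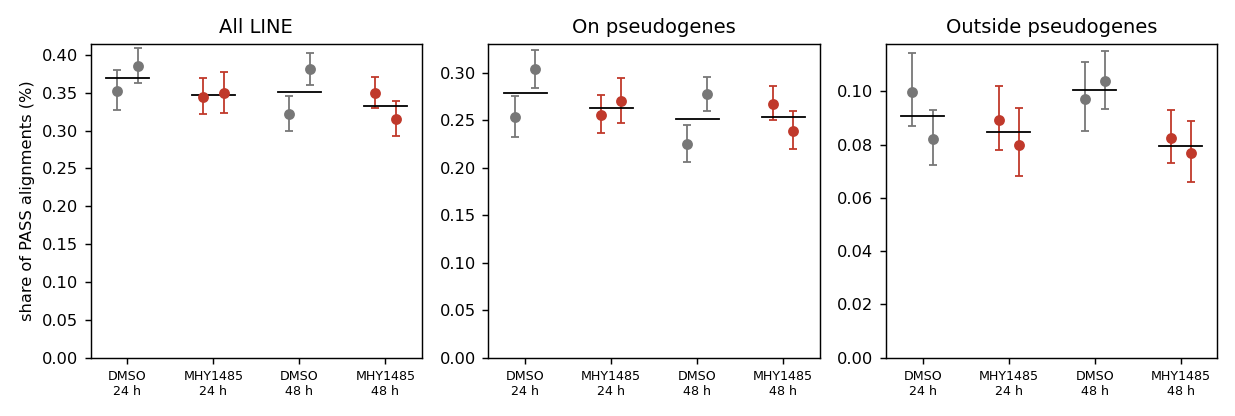
Share of PASS alignments (%) in each library for all LINE alignments, those on pseudogenes and those outside them, with points for libraries, Wilson 95% intervals as bars and lines for group means. The 2 MHY libraries of 48 h, at 0.0825% and 0.0767%, sit below the DMSO libraries outside pseudogenes but not on them.

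L1Md_T is a young L1 subfamily with members that still move. It was the only LINE name called changed in read number (limma voom, Benjamini-Hochberg adjusted p under 0.05 over 4139 features). At 48 h it had 77 and 135 alignments in the DMSO libraries and 72 and 42 in the MHY libraries. Scaled by library, it fell by 0.97 on the log2 scale (SE 0.20, limma adjusted p = 0.000872). Of all features 1.62% were called at 48 h, 1.26% in this direction, and 1 of 8 tested LINE names was called. At 24 h L1Md_T had 84 and 80 alignments after DMSO and 68 and 68 after MHY, with a log2 difference of -0.08 (SE 0.20, limma adjusted p = 0.994), and 0.0483% of all features were called. The difference between the times did not pass (log2 -0.89, limma adjusted p = 0.310), a test in which 0.217% of all features were called. The call was lost without the DMSO library 25 of 48 h (log2 -0.81, limma adjusted p = 0.146), while the adjusted p ranged from 0.000129 to 0.0195 over the other settings.

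A single copy held most L1Md_T alignments. L1Md_T_dup18258 (chr13:9832021-9838665, 6645 nt) had 565 of 626, over a median span of chr13:9836124-9836418 where no gene is annotated. Its reads could be placed well, with a median mapping quality of 58. At 48 h it made up 0.0319% and 0.0375% of PASS alignments after DMSO, and 0.0199% and 0.0164% after MHY. Both MHY libraries lay below, and the ratio was 0.543 and 0.509 within the runs. At 24 h the DMSO libraries had 0.0366% and 0.0232% and the MHY libraries 0.0261% and 0.0336%, so that the groups overlapped. In the fit of single copies, which tested 7 LINE copies and called 1.76% of all features at 48 h, it fell by 1.02 on the log2 scale (SE 0.21, limma adjusted p = 0.000671). The copy L1Md_F2_dup2636 (chr1:100176976-100182358), in an intron of Cntnap5b, also passed in that fit (log2 -1.38, SE 0.40, limma adjusted p = 0.0493), but 114 of its 131 reads also aligned to L1Md_T_dup18258, so that it is not a separate observation. Without L1Md_T_dup18258, LINE outside pseudogenes had a ratio of 0.934 at 48 h, with those 114 reads still counted on L1Md_F2_dup2636.

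**Figure D3:**
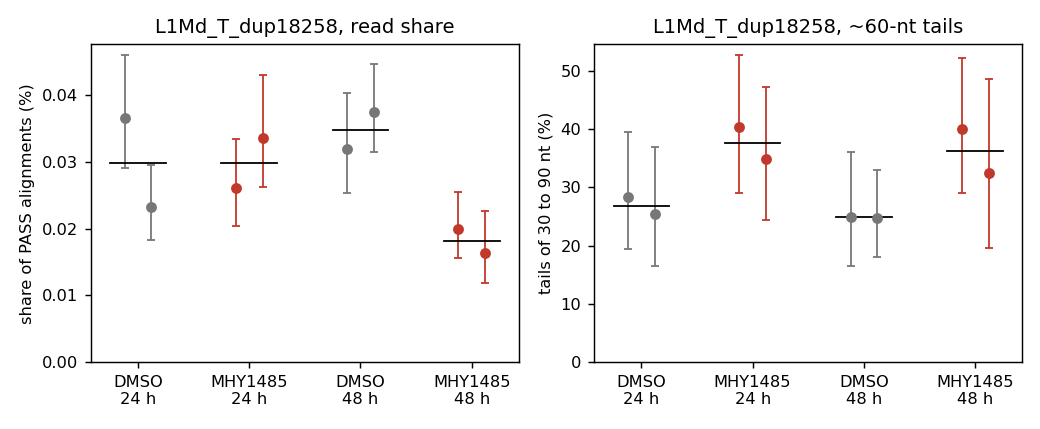
Share of PASS alignments (left, %) and share of tails of 30 to 90 nt (right, %) for L1Md_T_dup18258 in each library, with Wilson 95% intervals and lines for group means. At 48 h the MHY libraries have 0.0199% and 0.0164% of alignments, against 0.0319% and 0.0375% after DMSO.

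The other tested names did not pass. L1Md_F2 had a log2 difference of -0.66 at 48 h (SE 0.27, limma adjusted p = 0.239) and Lx7 of -0.45 (SE 0.31, limma adjusted p = 0.574). Lx3B, with the Rps7 pseudogene, had -0.14 (SE 0.11, limma adjusted p = 0.647), and L1_Mus1 had 0.15 (SE 0.20, limma adjusted p = 0.821). At 48 h both MHY libraries were below both DMSO libraries for 4 of 8 names and above for 1, against 21.6% and 18.6% of all features. At 24 h this was 1 below and 1 above, against 19.3% and 14.9%.

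Tails of LINE alignments were shorter than those of gene transcripts. The median tail was 75.6 to 92.8 nt over the 8 libraries for LINE and 92.4 to 102.5 nt for gene transcripts. LINE was lower in 8 of 8 libraries, by 11.9 nt ± 2.97 on average (SD, n = 8, exact sign-flip permutation p = 0.00781, adjusted over 17 comparisons 0.0221). Without Lx3B_dup3459 the difference was -4.16 nt and no longer passed (exact permutation p = 0.117, n = 8). LTR copies, the remains of endogenous retroviruses, had longer tails of 118.0 to 127.7 nt, and LINE was 36.4 nt ± 3.42 lower (exact permutation p = 0.00781, n = 8). Against SINE copies, short elements that depend on the L1 enzyme, the difference was -2.94 nt ± 7.61 with 4 of 8 libraries lower (exact permutation p = 0.344, n = 8). This call rested on the setting, since the difference passed as -19.5 nt where mapping quality reached 10, -15.0 nt where barcode confidence reached 0.9 and -10.9 nt on mean tails, and in the other direction as 14.7 nt without pseudogenes (exact permutation p = 0.00781 each, n = 8). In every library LINE had fewer tails under 30 nt than SINE, by 5.67 percentage points ± 1.25 on average, and more tails of 30 to 90 nt, by 7.81 ± 5.23 (exact permutation p = 0.00781 each, n = 8). Tails over 90 nt differed by -2.14 ± 4.98, with 4 of 8 libraries lower (exact permutation p = 0.281, n = 8). Outside pseudogenes the mean LINE shares were 11.5% under 30 nt and 30.6% of 30 to 90 nt. For SINE they were 10.7% and 39.4%, so that both directions turned, which was not tested.

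The lower LINE median came with the pseudogenes. On pseudogenes the median was 71.9 to 90.7 nt, and outside them 96.6 to 118.5 nt, higher in 8 of 8 libraries by 21.2 nt ± 9.90 (exact permutation p = 0.00781, n = 8). Outside pseudogenes LINE was 5.81 nt ± 7.79 above gene transcripts, in 6 of 8 libraries (exact permutation p = 0.0469, adjusted 0.0664, n = 8). Without L1Md_T_dup18258, whose reads make up 565 of the 1808, the difference was 12.4 nt ± 8.17, in 7 of 8 libraries, and passed (exact permutation p = 0.0156, adjusted 0.0332, n = 8). The classes differed as well. Tails under 30 nt made up 5.06% to 19.6% outside pseudogenes and 2.17% to 4.46% for gene transcripts, higher in 8 of 8 libraries. The excess was 8.69 percentage points ± 4.63, and 4.52 ± 3.78 without L1Md_T_dup18258, again in 8 of 8 libraries, with 0.219 as the smallest. The values without L1Md_T_dup18258 still count 114 of its reads through their alignments on L1Md_F2_dup2636. Tails of 30 to 90 nt (called ~60-nt) made up 26.9% to 35.3% outside pseudogenes and 48.4% to 58.1% on them.

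**Figure D4:**
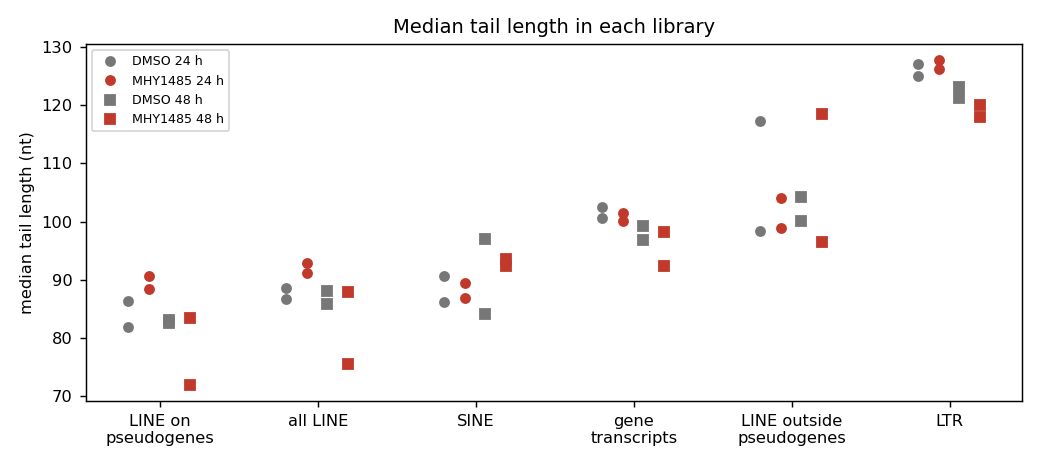
Median tail length (nt) in each library for LINE, LINE on and outside pseudogenes, SINE, LTR and gene transcripts, with grey for DMSO, red for MHY, circles for 24 h and squares for 48 h. LINE on pseudogenes lies at 71.9 to 90.7 nt and LINE outside them at 96.6 to 118.5 nt.

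Reads placed on the pseudogenes had shorter tails than those placed on the parent mRNA. The median on Lx3B_dup3459 was 73.7 to 92.8 nt and on Rps7 mRNA 104.5 to 119.2 nt. The copy was lower in 8 of 8 libraries, by 29.3 nt ± 3.85 (exact permutation p = 0.00781, adjusted 0.0221, n = 8), a comparison added after the values were seen. Rps7 mRNA and Rps24 mRNA here each mean the single transcript of the gene with most alignments. Rps7 mRNA had 1562 alignments, also with a median mapping quality of 1. L1_Mus1_dup14975 was 13.99 nt ± 9.42 below Rps24 mRNA, in 7 of 8 libraries (exact permutation p = 0.0156, adjusted 0.0332, n = 8). Whether the placement of near-identical reads has a part in these differences was not tested.

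**Figure D5:**
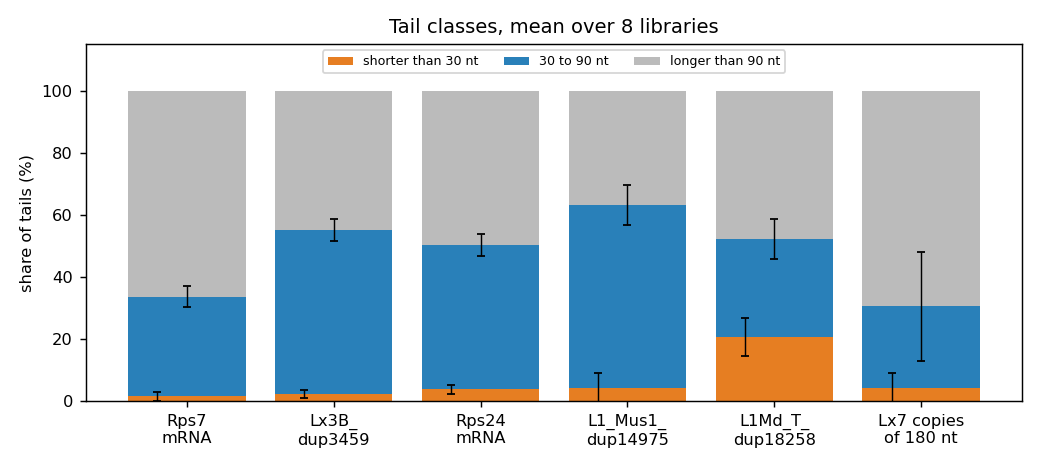
Mean share (%) of tails under 30 nt, of 30 to 90 nt and over 90 nt over 8 libraries, with SD bars at the upper edge of the lower classes. Tails of 30 to 90 nt were more frequent on Lx3B_dup3459 than on Rps7 mRNA, by 20.6 percentage points on average.

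Short tails were frequent on L1Md_T_dup18258. Tails under 30 nt made up 10.4% to 31.9% of its reads, above gene transcripts in 8 of 8 libraries by 17.9 percentage points ± 6.15 (exact permutation p = 0.00781, n = 8). Its ~60-nt share was 28.4% and 25.4% after DMSO and 40.3% and 34.9% after MHY at 24 h, and 18 of 72 and 31 of 125 tails after DMSO and 26 of 65 and 12 of 37 after MHY at 48 h. Both MHY libraries were above both DMSO libraries at both times (exact permutation p = 0.333 each, n = 2). For the name L1Md_T the 48 h difference did not pass in the fit (log2 odds 0.84, SE 0.35, limma adjusted p = 0.634). No LINE name of 5 tested was called for the <30-nt or the ~60-nt share at either time by limma. At 48 h, 2 names (Lx3B and L1_Mus1) had an unadjusted p under 0.05 for the <30-nt share and 1 (L1Md_T) for the ~60-nt share, and at 24 h there were 0 for both. At that unadjusted p, 10.6% of all features passed for the <30-nt share and 6.11% for the ~60-nt share at 48 h, and 5.84% and 4.41% at 24 h. By adjusted p, 0.372% and 0.266% of all features were called at 48 h.

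The median tail of all LINE alignments was higher under MHY at 24 h and lower at 48 h, but these directions changed with the measure and the alignments used. At 24 h the median was 88.7 and 86.6 nt after DMSO and 91.1 and 92.8 nt after MHY, with both MHY libraries higher (exact permutation p = 0.333, n = 2). Within the 3 runs of 24 h the difference was -2.79, 4.20 and 12.3 nt, and the run with the opposite sign had most alignments (1405). At 48 h it was 85.8 and 88.1 nt after DMSO and 75.6 and 87.9 nt after MHY, where the MHY library 24 stood apart and the groups overlapped (exact permutation p = 0.667, n = 2). The mean tail differed by -0.709 nt at 24 h and -4.08 nt at 48 h, lower under MHY at both times. Among alignments whose mapping quality reached 10 the median differed by 0.09 nt and 0.695 nt, and outside pseudogenes by -6.31 nt and 5.38 nt. On Lx3B_dup3459 tails under 30 nt made up 1.83% and 1.88% after DMSO and 5.60% and 2.63% after MHY at 48 h. For gene transcripts the <30-nt share at 48 h was also above in both MHY libraries, with means of 3.92% ± 0.768 against 2.72% ± 0.213 (SD, n = 2).

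Names that begin with L1Md, called young L1 here by name alone, had 966 alignments on 5 names, and the other L1 names 6119. The 5 names were L1Md_T (626), L1Md_F2 (252), L1Md_F3 (78), L1Md_A (9) and L1Md_F (1). The age of their copies was not tested. L1Md_T_dup18258 alone gave 565 of the 966, so that values are also given without it. Of the 401 alignments then left, 252 were of the name L1Md_F2. Among these, 114 were on L1Md_F2_dup2636 by reads that also aligned to L1Md_T_dup18258. Young L1 had a median tail 10.6 nt ± 15.0 above the other L1, higher in 6 of 8 libraries (exact permutation p = 0.0859, n = 8). This fell to 2.42 nt where mapping quality reached 10 and to 2.30 nt without Lx3B_dup3459 (exact permutation p = 0.805 and 0.719, n = 8). Outside pseudogenes it was 21.6 nt ± 20.9 below, in 6 of 8 libraries (exact permutation p = 0.0312, adjusted 0.0590, n = 8). Without that copy the median was 18.6 nt ± 11.4 above the other L1, in 8 of 8 libraries (exact permutation p = 0.00781, adjusted 0.0221, n = 8), and outside pseudogenes 12.5 nt ± 11.7 below, in 7 of 8 libraries (exact permutation p = 0.0391, adjusted 0.0664, n = 8). With L1Md_T_dup18258 kept, tails under 30 nt were more frequent in young L1 in 8 of 8 libraries, on all L1 and outside pseudogenes. On all L1 the excess was 13.9 percentage points ± 6.96 (exact permutation p = 0.00781, n = 8). Without the copy this was 8.97 percentage points ± 8.30, in 6 of 8 libraries (exact permutation p = 0.0312, adjusted 0.0409, n = 8). The share of young L1 at 48 h was 0.0563% and 0.0570% after DMSO and 0.0374% and 0.0368% after MHY, with no overlap. Without the copy it was 0.0244% and 0.0195% after DMSO and 0.0175% and 0.0204% after MHY, so that the groups overlapped.

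L2 had 3 to 10 alignments per library. Its share overlapped between DMSO and MHY at both times, and differences in its tails rest on these few reads.

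Genes known to silence LINEs or to act on their RNA did not pass the test in read number. All 24 genes on the list had alignments, 10 were deep enough to be tested (11 transcripts) and 0 were called at 24 h or 48 h by limma voom, where 0.0483% and 1.62% of all features were called, so that 0 of 10 does not set them apart. Each gene is given by its transcript with most reads, which held 60 of the 388 alignments of Dnmt3b, 190 of 315 of Pabpc4, 1898 of 2008 of Ncl and a larger share for the other genes named. Ncl, an RNA-binding protein of the nucleolus that binds L1 RNA, had a log2 difference of -0.45 at 24 h (SE 0.15, limma adjusted p = 0.812) and 0.02 at 48 h (SE 0.14, adjusted 0.974). Pabpc1, a cytoplasmic poly(A) binding protein, had -0.27 at 24 h (SE 0.16, limma adjusted p = 0.979) and -0.42 at 48 h (SE 0.15, adjusted 0.175). Pabpc4, of the same family, had -0.86 at 24 h (SE 0.34, limma adjusted p = 0.979) and -0.32 at 48 h (SE 0.29, adjusted 0.704). Dnmt3b, a DNA methyltransferase, had -0.47 at 24 h (SE 0.72, limma adjusted p = 0.994) and 0.33 at 48 h (SE 0.50, adjusted 0.858). Trim28, a corepressor recruited to retrotransposons, had 0.16 at 24 h (SE 0.17, limma adjusted p = 0.994) and -0.14 at 48 h (SE 0.17, adjusted 0.808). L1td1, a gene derived from the L1 RNA-binding protein, had -0.15 at 24 h (SE 0.29, limma adjusted p = 0.994) and 0.02 at 48 h (SE 0.24, adjusted 0.981).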

How the data were processed

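Per the labels and the study's methods, the authors sequenced poly(A) RNA on nanopores, used Guppy for base calling, minimap2 (version 2.20 in the submitters' processing notes) for alignment to mm10 with GENCODE vM17, Nanopolish for tail lengths and Deeplexicon to separate barcodes. The deposited table holds 2439710 alignments of 2364352 reads. Its tail length is in nt, its mapping quality is a deposited minimap2 score, and its barcode confidence is a deposited fraction. It holds no counts, so alignments were counted here. Which labelled replicate a library number stands for is not shown, and the groups alone were used.

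PASS alignments were kept once per read and contig. A LINE alignment was assigned to a pseudogene, exon or intron covering at least 50% of it (GENCODE vM21, with RefSeq for pseudogenes alone, both GRCm38). Library values were compared with two-sided exact permutation tests, differences within libraries with exact sign-flip tests. Gene transcripts and repeat names that reached 10 reads in 2 or more libraries were fitted with limma voom 3.58.1 (R 4.3.3) on median-of-ratios size factors, and tail classes with limma on the log2 odds (0.5 added, at least 10 reads in each of 8 libraries). Benjamini-Hochberg adjustment ran over all features at 0.05. The limma fits were run on simulated data with known changes, and the exact tests were checked only on short made-up inputs with known answers. Wilson 95% intervals cover counting error. Named were all families, the 10 names and 10 copies with most alignments, every called name, and up to 6 genes of a list of LINE regulators with most reads. Members and lists were chosen with earlier results of these data known. Alternatives changed the quality tags, mapping quality, barcode confidence, alignments per read, denominator, class bounds, read minimum, scaling, weights and libraries, and without Lx3B_dup3459, L1Md_T_dup18258 or pseudogenes were chosen after seeing the data.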

Additional observations from a re-analysis of the deposited data

Results flagged for a closer look

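The share of ~60-nt tails over all LINE alignments went in opposite directions at the 2 times. At 24 h it was 45.2% and 50.3% after DMSO and 44.8% and 43.9% after MHY, with both MHY libraries lower. At 48 h it was 46.1% and 46.9% after DMSO and 52.7% and 47.8% after MHY, with both MHY libraries higher. The change at 48 h was 7.17 percentage points above that at 24 h, with an exact permutation p of 0.0556, the smallest that 2 libraries per group allow. Within runs the difference was 1.09, -5.58 and -7.74 percentage points in the 3 runs of 24 h, and 1.75 and 5.34 in the 2 runs of 48 h. Without alignments on pseudogenes the change differed by 2.91 percentage points between the times (exact permutation p = 0.5, n = 2).

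Alignments that lack the PASS tag entered 1 alternative for the read share and no other comparison. The tag SUFFCLIP, for reads with bases left unaligned at the 3' end, was carried by 17.8% of LINE alignments (1830 of 10263) and by 2.51% of those on mRNA. On Lx3B_dup3459 the share was 0.449%, and on the other LINE copies 35.1%. SINE had 36.1% and LTR 64.9%. Over the 8 libraries the LINE share was 15.9% to 20.02%.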

How the results depend on the processing

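Of 274 alternatives over 19 results, 238 kept direction and side of the threshold and 26 reversed the direction. Exact tests of 2 against 2 libraries (smallest p 0.333) and of the difference between the times (smallest p 0.0556) could not pass 0.05. For these the side of the threshold was fixed in advance, and only the direction could change. Tests passed where the value reported did not in 9 of them, 2 in the other direction, and no longer passed in 1. The cause was not tested. Mapping quality of at least 10 gave 0.00830 for the read share at 24 h (percentage points, MHY minus DMSO), 0.695 nt for the median at 48 h and -2.88 for the <30-nt share at 48 h. It moved LINE minus SINE to -19.5 nt. Barcode confidence of at least 0.9 gave 0.197 for the <30-nt share at 24 h, -15.0 nt for LINE minus SINE and 13.9 nt for young minus other L1. With 1 alignment per read these were 0.0517 for the <30-nt share at 24 h and 15.5 nt for young minus other L1. Mean tails gave -0.709 nt at 24 h, -10.9 nt for LINE minus SINE and 15.8 nt for young minus other L1. Tails under 20 nt gave 0.0729 at 24 h and -0.740 at 48 h. Without Lx3B_dup3459 the <30-nt share gave 0.549 at 24 h and -1.60 at 48 h, LINE minus gene transcripts -4.16 nt (the test that no longer passed), LINE minus SINE 4.76 nt and the read share between times -0.0109. Without pseudogenes the median gave -6.31 nt at 24 h and 5.38 nt at 48 h, the <30-nt share 2.04 and -4.41, LINE minus gene transcripts 5.81 nt, LINE minus SINE 14.7 nt, young minus other L1 -21.6 nt and the read share between times -0.0145. Without L1Md_T_dup18258 young minus other L1 gave 18.6 nt. The values listed here for young minus other L1, and those for LINE minus SINE but 4.76 nt, had an exact p under 0.05, which the values reported had not. Mapping quality of at least 10 and leaving out Lx3B_dup3459 instead lowered young minus other L1 to 2.42 and 2.30 nt. Fits of single copies called 2 of 7 at 48 h, which share 114 reads, against 1.76% of all features. Leaving out 1 library gave -0.0485 to 0.0109 for the read share at 48 h, -11.4 to 0.918 nt for the median at 48 h, -1.44 to 1.38 for the <30-nt share at 24 h, -1.35 to 2.59 for the <30-nt share at 48 h and 0 to 1 called names at 48 h. The replicate block, on library numbers that share only a number (correlations 0.0417 and 0.0265), left the read share at 48 h at -0.0188 and changed no call for LINE names. It moved the calls over all features at 48 h from 67 to 89.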
